A study of Homo sapiens with 4 samples.

Results

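The 10 genes described here are core parts of the Notch signalling pathway: the receptors NOTCH1 and NOTCH3, the ligands DLL1, DLL3, JAG1 and JAG2, and the target genes HES1, HES5, HEY1 and NRARP. They were taken by symbol from tables of 62696 genes, and all 10 were found once in each of 4 libraries. NOTCH2 and its copies were left out by the same choice. The libraries are RNA-seq of NT2 (NTERA-2) cells, a human embryonal carcinoma line that grows as undifferentiated cells and can be induced to form neurons. One group was 1 library from cells carrying an empty vector, with the genotype given as wild type. The other was 3 libraries labelled HYDIN2 knockdown, in the same line and medium. They are called KD1, KD2 and KD3 after their labelled replicate numbers, and the single library of the first group is called the vector control. The labels do not say how HYDIN2 was knocked down or whether the replicates were separate cultures, so their spread may be technical. HYDIN2 arose by partial duplication of the motile cilium gene HYDIN.

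Notch signalling passes between touching cells. A ligand of the Delta-like (DLL) or Jagged (JAG) type on one cell pulls on a receptor of its neighbour, the receptor is cut by an ADAM protease and then by gamma-secretase, and the freed intracellular domain enters the nucleus. There it joins the DNA-binding protein RBPJ and a Mastermind-like (MAML) coactivator and switches on HES and HEY genes, which encode basic helix-loop-helix repressors. In the developing nervous system HES1 and HES5 hold cells as progenitors by repressing proneural genes, and NRARP limits the signal by acting on the intracellular domain.

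The direct targets are shown first, because RBPJ binds a short sequence that can be read in their promoters. RefSeq promoter windows on GRCh38.p14, from 250 bases before the start of the gene to 50 bases after it, were found for 7 of the 10 genes. The 7-base RBPJ core GTGGGAA was searched on both strands. It stood in 2 of these 7 windows, HES1 and HES5, against 6.25% of 35116 RefSeq promoter windows of the same length. The 250 bases before the start are given for 3 targets, HES1 (chr3:194135898-194136147, plus strand), HES5 (chr1:2530264-2530513, minus strand) and NRARP (chr9:137302272-137302521, minus strand), and for the ligand JAG1 (chr20:10674000-10674249, minus strand), which had the highest mean log2 difference of the 10 genes. Each is written 5′ to 3′ on the strand of the gene, and capitals mark the RBPJ core on either strand.
HES1: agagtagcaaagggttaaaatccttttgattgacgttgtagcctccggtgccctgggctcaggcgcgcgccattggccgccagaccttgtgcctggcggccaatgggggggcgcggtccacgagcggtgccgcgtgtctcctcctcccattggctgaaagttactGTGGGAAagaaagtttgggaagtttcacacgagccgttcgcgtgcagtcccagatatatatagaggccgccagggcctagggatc
HES5: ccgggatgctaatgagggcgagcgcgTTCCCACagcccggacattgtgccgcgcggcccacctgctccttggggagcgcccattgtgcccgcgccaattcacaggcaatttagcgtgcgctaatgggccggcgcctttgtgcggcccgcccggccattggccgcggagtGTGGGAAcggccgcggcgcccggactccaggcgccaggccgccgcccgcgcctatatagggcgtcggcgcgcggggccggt
NRARP: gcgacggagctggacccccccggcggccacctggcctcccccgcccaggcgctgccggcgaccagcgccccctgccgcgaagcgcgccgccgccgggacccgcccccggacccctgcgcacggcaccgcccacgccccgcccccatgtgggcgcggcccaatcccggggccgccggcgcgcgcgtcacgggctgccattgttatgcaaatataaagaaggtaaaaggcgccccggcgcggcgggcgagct
JAG1: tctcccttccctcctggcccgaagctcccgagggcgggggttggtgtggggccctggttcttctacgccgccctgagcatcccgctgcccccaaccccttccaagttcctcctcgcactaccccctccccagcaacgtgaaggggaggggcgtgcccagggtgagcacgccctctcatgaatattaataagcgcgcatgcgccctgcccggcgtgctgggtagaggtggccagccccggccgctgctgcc
HES1 held the core once, at bases -85 to -79 from the start. HES5 held it at bases -81 to -75 and, on the other strand, at bases -224 to -218. No core was found in the windows of NRARP and JAG1, which says only that these letters are not in them. The N-box CACNAG, the sequence that HES proteins are known to bind, was found 4 times in the HES1 window on either strand, and HES1 is known to repress itself. It stood in 4 of the 7 windows, against 38% of all windows. The palindromic E-box CACGTG stood in none of the 7, against 7.26% of all. A match is a description of the letters and not a site shown to be bound in these cells.

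Library totals ran from 25181737 to 62904698 counts. HYDIN2, the targeted gene, had 12 counts (0.50 CPM, a count scaled to the size of its library) in the vector control and 150 (2.41 CPM), 112 (1.88 CPM) and 11 (0.352 CPM) in the libraries labelled KD1, KD2 and KD3. It was thus higher in KD1 and KD2, against their label, and had 11 counts in KD3 against 12. The target therefore does not bear out the labels, and directions below are those of the labels alone. HYDIN had 5.62 CPM in the vector control and 8.67, 8.06 and 4.26 CPM in KD1, KD2 and KD3. Whether reads of HYDIN and HYDIN2 were mixed was not tested. The headers of the count columns name a LacZ control and numbered GKAP_KIF27 sets, not the names in the labels. KD1 and KD2 were at least 2-fold apart in 0.177% of genes, while KD3 was at least 2-fold from both of them, in one direction, in 20.1% of 16105 genes (1267 higher, 1975 lower; with upper quartile scaling 1791 higher and 1445 lower). All 10 markers fixed for embryonal carcinoma and pluripotent cells were detected in every library, with a summed level of 7597 CPM in the vector control and 8704, 8743 and 7563 CPM in KD1, KD2 and KD3. That sum rests mainly on LIN28A and PODXL, and single markers differed. DNMT3B was past 2-fold lower in all 3, with 795 CPM in the vector control and 340, 350 and 349 CPM in the KD libraries, and L1TD1 had 472 CPM and then 241, 239 and 227 CPM. In KD3 POU5F1, NANOG and TDGF1 had 19.4, 323 and 138 CPM, against 42.8, 502 and 420 CPM in the vector control.

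The vector control has no replicate. A gene was therefore called when its log2 CPM was at least 2-fold away from the vector control in all 3 KD libraries and always to the same side. Of 15880 genes with a mean level of at least 1 CPM, 3.65% were called higher and 2.72% lower, 6.37% in all. Total-count scaling gave 734 higher and 312 lower genes against 580 and 432. Of the 10 Notch genes, 9 reached that level, and 1 of these, the ligand JAG1, was called. HES5 had no count in any library. At a 1.5-fold rule 4 of the 9 were called, JAG1 and HES1 higher and DLL3 and JAG2 lower, against 10% of all genes higher and 9.61% lower. edgeR's quasi-likelihood test, adjusted over all 26029 genes tested, called 0 genes (0% of those tested, with 3023 at an unadjusted p under 0.05) and so none of the 9. Its adjusted p ran from 0.358 for JAG1 to 0.85 for DLL1, and 2 of the 9, JAG1 and HES1, had an unadjusted p under 0.05. The Wald test of DESeq2 called 253 genes (1.53% of those tested), among them JAG1 alone of the 9, with an adjusted p of 0.0436. limma voom called 0 genes, with 2232 at an unadjusted p under 0.05. Without KD3, so that the spread came from KD1 and KD2 alone, edgeR called 44.7% of 25016 genes and 7 of the 9 Notch genes (not DLL1 and HEY1).

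**Figure D1:**
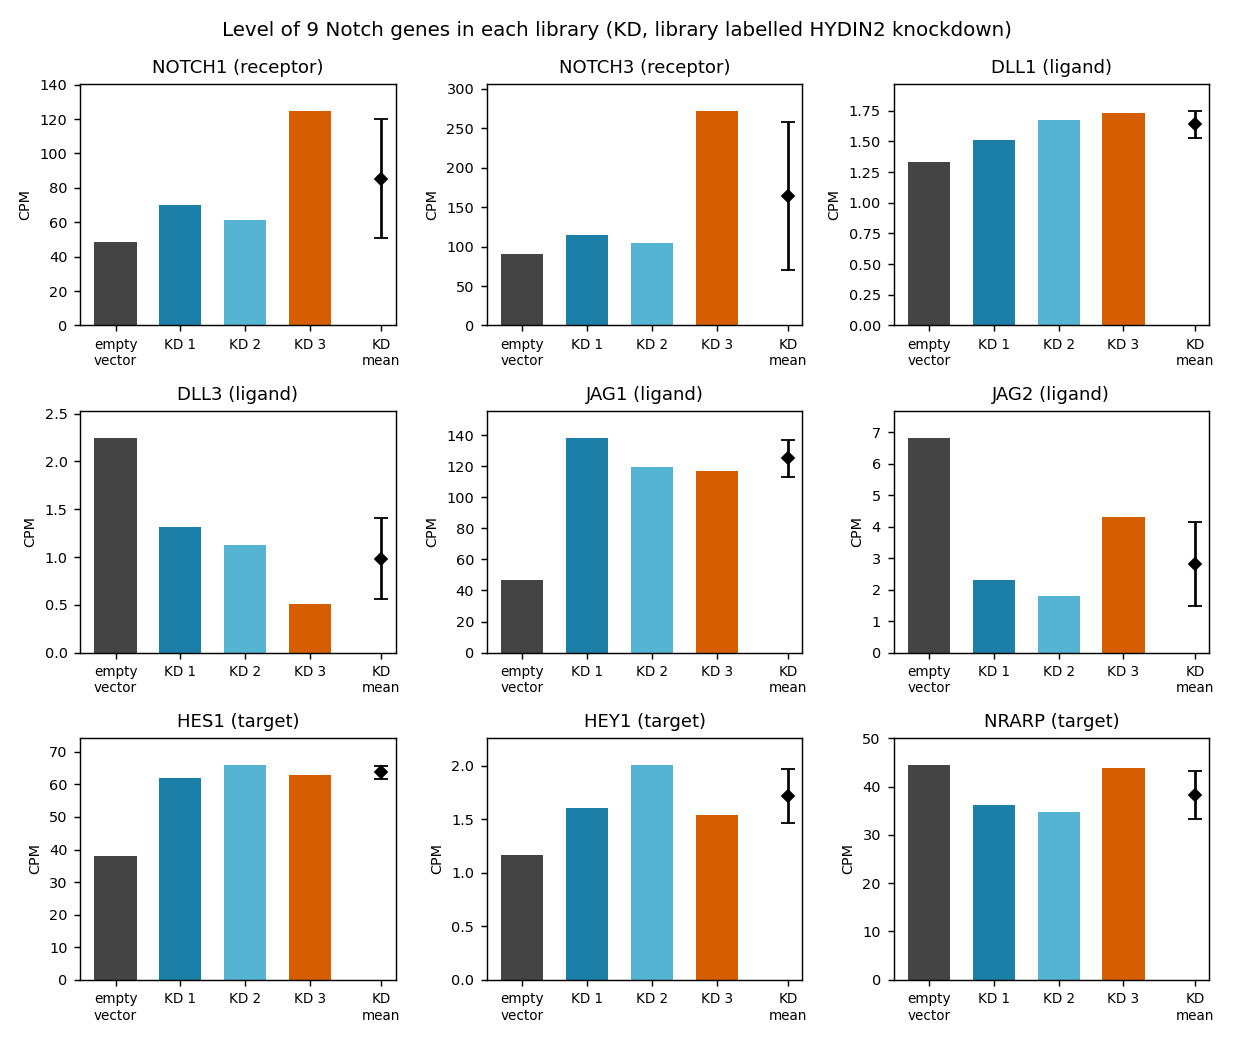
Level in CPM (vertical axes, each from 0) of the 9 detected Notch genes in the vector control and the 3 libraries labelled HYDIN2 knockdown (KD 1 to 3). Diamonds are the mean of the 3 KD libraries and bars their SD. JAG1 stands at 46.6 CPM in the vector control and between 117 and 138 CPM in the others, while NOTCH1 and NOTCH3 are highest in KD 3.

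The receptors were higher in every KD library, and most in KD3. NOTCH1 (ENSG00000148400.13, protein coding; GRCh38, chromosome 9, 136494433 to 136545786, minus strand) encodes a receptor that the embryo needs for blood vessel and somite formation. It had 1162 counts in the vector control, or 48.4 CPM, and 69.8, 61.4 and 125 CPM in KD1, KD2 and KD3. All 3 stood above the vector control, with KD3 far above the other two. The ratios to the vector control were 1.44, 1.27 and 2.58, with 95% counting intervals of 1.32 to 1.58, 1.16 to 1.40 and 2.35 to 2.84. On the log2 scale they averaged 0.75 ± 0.55 (SD, n = 3), and 0.39 without KD3.

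NOTCH3 (ENSG00000074181.9, protein coding; chromosome 19, 15159038 to 15200981, minus strand), a receptor best known from vascular smooth muscle, had 91.2 CPM in the vector control and 115, 105 and 273 CPM in the KD libraries. KD1 and KD2 were close to the vector control, at ratios of 1.26 (1.18 to 1.35) and 1.15 (1.08 to 1.24). KD3 was 2.99 times as high (2.80 to 3.20). The mean log2 difference, 0.71 ± 0.76 (SD, n = 3), was smaller than its spread, and it was 0.23 without KD3. NOTCH3 was the 1 gene of the 10 that lay over 2-fold from both other KD libraries in KD3, by log2 differences of 1.25 and 1.38, against 7.87% of all genes higher by that rule. NOTCH1 differed there by 0.84 and 1.03 on the log2 scale. DLL3 was lower there by log2 differences of -1.29 and -1.07, at levels under the expression minimum of that comparison. The NOTCH3 ratio of KD3 to KD1 was 2.37 (2.27 to 2.48), and that of KD2 to KD1 was 0.914 (0.871 to 0.959).

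Both receptors have long transcripts, of 9306 and 8666 nt for the longest GENCODE 29 transcript, and a GC content of 62.9% and 63.1%. The libraries differed by transcript length: over all genes tested, longer transcripts had higher log2 differences, with a Spearman correlation of 0.347, 0.298 and 0.460 for KD1, KD2 and KD3 across genes, which are not independent replicates. With smooth trends on length and GC content removed (the 2-fold rule then called 4.34% of all genes), NOTCH1 had log2 differences of 0.13, 0.04 and 0.59 and NOTCH3 of -0.02, -0.06 and 0.86. The higher level in KD1 and KD2 was thus nearly absent on that scale, and KD3 remained the highest. The mean was 0.25 for NOTCH1 and 0.26 for NOTCH3.

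The ligands differed in direction. JAG1 (ENSG00000101384.12, protein coding; chromosome 20, 10637684 to 10673999, minus strand), the Jagged ligand whose loss of 1 copy causes Alagille syndrome, had 1119 counts or 46.6 CPM in the vector control. It had 138, 120 and 117 CPM in KD1, KD2 and KD3, a mean of 125 ± 11.7 CPM (SD, n = 3). The 3 libraries lay close together and all far above the vector control. The ratios were 2.97 (2.72 to 3.25), 2.56 (2.34 to 2.81) and 2.51 (2.28 to 2.76), with a mean log2 difference of 1.42 ± 0.13 (SD, n = 3). KD3, apart in many other genes, was at 0.845 of KD1 (0.800 to 0.893) and 0.979 of KD2 (0.925 to 1.04). With the length and GC trends removed the log2 differences were 1.34, 1.19 and 0.90, so the call was lost through KD3. An annotated antisense gene, AL050403.2, overlaps 79 exon bases of JAG1.

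JAG2 (ENSG00000184916.9, protein coding; chromosome 14, 105140981 to 105168824, minus strand), the second Jagged ligand, went the other way. It had 164 counts or 6.83 CPM in the vector control and 2.31, 1.81 and 4.32 CPM in the KD libraries. All 3 were below the vector control, and KD3 lay between it and the other two. The ratios were 0.339 (0.243 to 0.470), 0.265 (0.184 to 0.378) and 0.633 (0.452 to 0.884), with a mean log2 difference of -1.36 ± 0.64 (SD, n = 3). JAG2 was past 2-fold in KD1 and KD2 but not in KD3 (log2 difference -0.66). With the trends removed it was past 2-fold in all 3, at -1.63, -1.90 and -1.01. A same-strand gene, AL512356.1, shares 469 exon bases with JAG2. How the counting treated shared bases is not given in the sources used here.

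DLL3 (ENSG00000090932.11, protein coding; chromosome 19, 39498895 to 39508481, plus strand) is a Delta-like protein that inhibits Notch in its own cell and does not activate receptors on neighbours. It had 54 counts in the vector control, or 2.25 CPM, and 82, 67 and 16 counts, or 1.32, 1.12 and 0.512 CPM, in the KD libraries. All 3 were lower, and KD3 was lowest. The ratios were 0.586 (0.352 to 0.990), 0.499 (0.292 to 0.861) and 0.228 (0.0894 to 0.515), wide because the counts are few. The mean log2 difference was -1.26 ± 0.69 (SD, n = 3).

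DLL1 (ENSG00000198719.9, protein coding; chromosome 6, 170282206 to 170306565, minus strand), the Delta-like ligand that activates Notch in the early embryo and the neural tube, was low everywhere. It had 32, 94, 100 and 54 counts in the vector control and KD1, KD2 and KD3, or 1.33, 1.51, 1.68 and 1.73 CPM. Its ratios to the vector control were 1.13, 1.26 and 1.30, and all 3 counting intervals, from 0.631 at the lowest to 2.58 at the highest, included 1. A difference was not detectable at this depth.

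Within a library, the share of each ligand in the summed per-length level of the 4 ligands does not depend on the scaling between libraries. Per kb of exon, JAG1 took 68.2% in the vector control and 91.8%, 91.3% and 89.9% in KD1, KD2 and KD3. JAG2 took 14.5% and then 2.23%, 2.01% and 4.83%. DLL3 took 11.7% and then 3.10%, 3.04% and 1.40%, and DLL1 5.62% and then 2.89%, 3.69% and 3.83%. The per-length ratio of JAG1 to JAG2 was 4.69 (95% counting interval 3.72 to 5.99) in the vector control. It was 41.2 (32.6 to 52.7), 45.5 (34.8 to 60.6) and 18.6 (14.6 to 24.1) in the KD libraries, so no interval of theirs reached that of the vector control. The size of the shares and ratios given here depends on the length used. JAG1 has 9298 exon bases but a longest transcript of 5940 nt. The fold difference of a ratio between libraries does not depend on it. JAG1 and NOTCH1 gave another pattern. Their per-length ratio was 1.08 (0.955 to 1.21) in the vector control and 1.05 (0.980 to 1.11) in KD3, against 2.21 (2.10 to 2.33) and 2.17 (2.05 to 2.30) in KD1 and KD2.

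**Figure D2:**
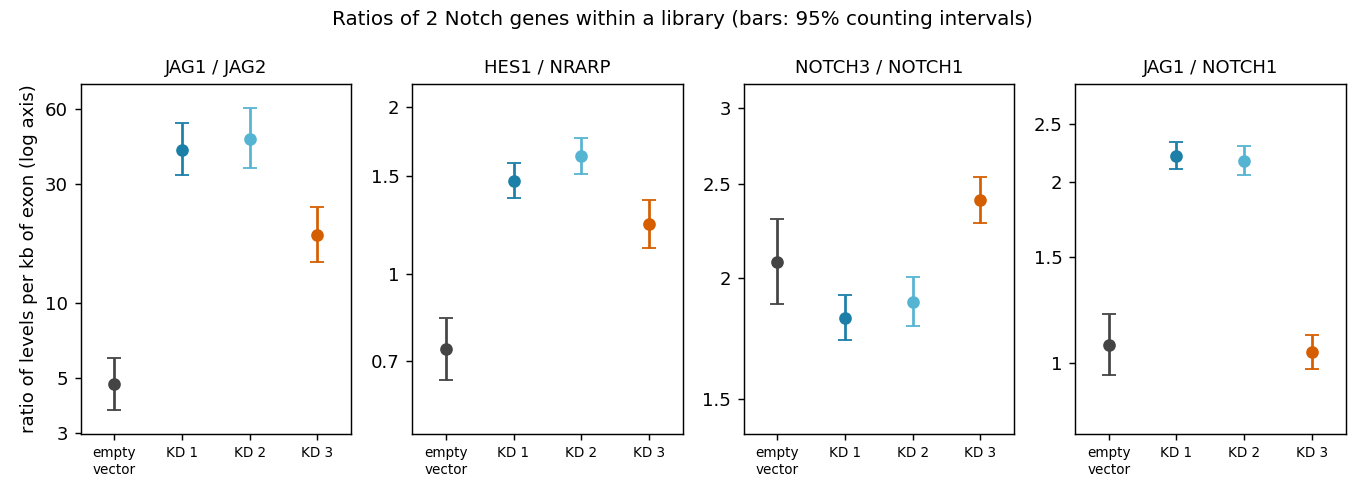
Ratio of the per-length levels of 2 Notch genes within each library (vertical axes, log scale; each panel has its own range), with 95% counting intervals; KD 1 to 3 are the libraries KD1 to KD3. JAG1 to JAG2 is lowest in the vector control at 4.69, and JAG1 to NOTCH1 is near 1 in the vector control (1.08) and KD 3 (1.05). Levels are per kb of exon, and the height of each ratio depends on that length.

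Of the target genes, HES1 gave the closest values among the KD libraries. HES1 (ENSG00000114315.4, protein coding; chromosome 3, 194136145 to 194138732, plus strand), whose promoter with its RBPJ core is printed above, had 913 counts or 38.0 CPM in the vector control. It had 62.1, 66.0 and 63.0 CPM in KD1, KD2 and KD3, a mean of 63.7 ± 2.06 CPM (SD, n = 3). The 3 libraries differed little from each other and all stood above the vector control. The ratios were 1.63 (1.47 to 1.81), 1.74 (1.57 to 1.93) and 1.66 (1.48 to 1.86), with a mean log2 difference of 0.74 ± 0.05 (SD, n = 3). HES1 was under 2-fold in each library. With the length and GC trends removed it passed 2-fold in all 3, at 1.05, 1.07 and 1.24.

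NRARP (ENSG00000198435.4, protein coding; chromosome 9, 137300482 to 137302251, minus strand), the ankyrin-repeat protein of Notch feedback, was not higher. It had 1068 counts or 44.5 CPM in the vector control and 36.1, 34.7 and 43.9 CPM in the KD libraries. KD1 and KD2 were slightly lower, at ratios of 0.812 (0.732 to 0.902) and 0.781 (0.703 to 0.868), and KD3 was at 0.987 (0.880 to 1.11). The mean log2 difference was -0.23 ± 0.18 (SD, n = 3), and -0.37 without KD3. The mean over all 3 changed direction, to 0.26, when the trends were removed. The level of NRARP in KD3 stood within reach of the vector control, and under total-count scaling, upper quartile scaling and TMM on genes of at least 1 CPM the vector control lay inside the range of the KD libraries.

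The per-length ratio of HES1 to NRARP, free of the scaling between libraries, was 0.734 (0.646 to 0.833) in the vector control. It was 1.47 (1.37 to 1.59), 1.63 (1.51 to 1.76) and 1.23 (1.12 to 1.36) in the KD libraries. Per kb of exon, NRARP was thus the higher of the pair in the vector control, and HES1 in the other 3. The size of the ratio in each library depends on the length used. HES1 has 2062 exon bases but a longest transcript of 1578 nt, and NRARP has 1770 by both. The fold difference of the ratio between libraries does not depend on length.

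HEY1 (ENSG00000164683.19, protein coding; chromosome 8, 79764010 to 79767863, minus strand), a repressor of the Hairy family with roles in the heart and blood vessels, had 28, 100, 120 and 48 counts in the vector control and KD1, KD2 and KD3, or 1.17, 1.61, 2.01 and 1.54 CPM. The 3 KD libraries were above the vector control, at ratios of 1.38, 1.72 and 1.32, but each counting interval included 1, with bounds from 0.655 at the lowest to 3.34 at the highest. HES5 (ENSG00000197921.6, protein coding; chromosome 1, 2528745 to 2530245, minus strand), the HES gene that follows Notch in neural progenitors, had 0 counts in all 4 libraries. A floor of 3 counts was 0.125 CPM in the vector control and 0.0482, 0.0503 and 0.0960 CPM in KD1, KD2 and KD3. That floor takes each count as separate, so it is too low where the 2 mates of a fragment count separately. No comparison of HES5 can be made. Its window held the RBPJ core 2 times and that of HES1 once, by exact match only, so variants of the core were not counted.

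Per kb of exon, the order of the genes also differed between libraries. Exon length here joins all annotated exons of a gene, and the order within a library depends on that choice. JAG1 has 9298 exon bases but a longest transcript of 5940 nt, and HES1 has 2062 and 1578. In the vector control NRARP was highest at 25.1 CPM per kb, followed by HES1 at 18.4, NOTCH3 at 9.70, JAG1 at 5.01 and NOTCH1 at 4.67; the counting interval of the JAG1 to NOTCH1 ratio included 1. In KD1 and KD2 HES1 led at 30.1 and 32.0 CPM per kb, then NRARP at 20.4 and 19.6, JAG1 at 14.9 and 12.9, NOTCH3 at 12.2 and 11.2 and NOTCH1 at 6.73 and 5.92. In KD3 NOTCH3, at 29.0 CPM per kb, came next to HES1 at 30.6 and above NRARP at 24.8. JAG1 followed at 12.6 and NOTCH1 at 12.1. JAG2, DLL3, DLL1 and HEY1 stayed between 0.196 and 1.07 CPM per kb in all 4 libraries. The detected genes thus fell into 5 with high levels and 4 with low levels in each library.

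**Figure D3:**
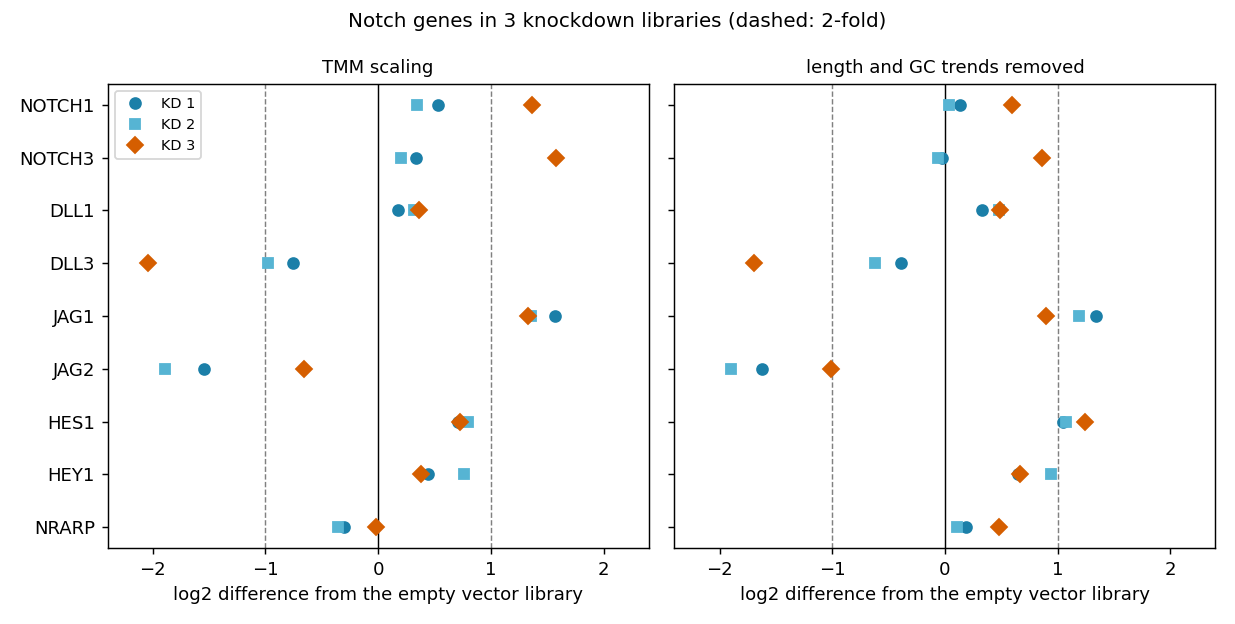
Log2 difference (horizontal axes) of each KD library from the vector control for 9 Notch genes, with TMM scaling (left) and after removal of the length and GC trends (right); dashed lines mark 2-fold. JAG1 is past 2-fold in all 3 libraries on the left but reaches only 0.90 in KD 3 on the right, where HES1 is past 2-fold higher and JAG2 past 2-fold lower in all 3.

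Among the 9 genes, the vector control lay below all 3 KD libraries for 6 (NOTCH1, NOTCH3, DLL1, JAG1, HES1 and HEY1) and above all 3 for DLL3, JAG2 and NRARP. Over all genes tested these shares were 30.1% below and 34.2% above, 64.4% in all, so lying outside the range is common in these libraries. The counting intervals of all 3 ratios excluded 1 for 6 of the 9 genes, NOTCH1, NOTCH3, DLL3, JAG1, JAG2 and HES1, against 50% of all genes tested. The median over all genes of the log2 difference was 0.03, 0.05 and -0.15 in KD1, KD2 and KD3, and total-count scaling moved the last to 0.05. Without KD3, JAG1 was higher and JAG2 lower past 2-fold, 2 of 9 genes, against 15% of all genes called.

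The other genes of the pathway were taken from a list of 58 in 7 groups, of which 46 reached the expression minimum. By the 2-fold rule 4 were higher and 2 lower, against 3.65% and 2.72% of all genes, and at 1.5-fold 10 were higher and 3 lower, against 10% and 9.61%. The median of the mean log2 differences was 0.15, against -0.02 over all genes tested, and -0.01 with the length and GC trends removed. Without KD3 the 2-fold counts were 7 higher and 5 lower of 47, against 9.06% and 5.97% of all genes. With the trends removed they were 3 higher (DNER, KAT2B and LFNG) and 0 lower of 46, against 2.61% and 1.73%.

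The 4 higher genes all belonged to the nuclear group of 14 genes tested, which holds RBPJ with its coactivators and corepressors. The coactivator MAML2 had 20.0 CPM in the vector control and 50.9, 45.3 and 43.1 CPM in KD1, KD2 and KD3. MAML3 had 5.54 CPM and then 19.3, 16.0 and 13.9 CPM. The histone acetyltransferase gene KAT2B had 4.04 CPM and then 10.7, 10.3 and 13.4 CPM. Every KD value of these genes lay above the vector control, with mean log2 differences of 1.21 ± 0.12, 1.54 ± 0.24 and 1.48 ± 0.21 (SD, n = 3) in that order. At 1.5-fold 8 of the 14 were higher and none lower, against 10% and 9.61% of all genes, and the median of the group was 0.91. With the trends removed that median was 0.47 and 1 gene, KAT2B, was called. RBPJ itself differed little, with 366 CPM in the vector control and 364, 348 and 349 CPM in the others, a mean log2 difference of -0.05 ± 0.04 (SD, n = 3).

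Both lower genes were further HES genes, of 4 tested among the other HES and HEY genes. HES4 had 11.2 CPM in the vector control and 4.24, 4.94 and 3.59 CPM in the KD libraries. HES6, which is known to oppose HES1 and favour neuron formation, had 7.12 CPM and then 2.89, 3.07 and 2.37 CPM. Their mean log2 differences, -1.40 ± 0.23 and -1.35 ± 0.19 (SD, n = 3), had the opposite sign to that of HES1. With the trends removed both calls were lost, at means of -0.81 and -0.84. HEY2, a relative of HEY1, split the KD libraries, with 18.2 CPM in the vector control, 37.7 and 32.1 CPM in KD1 and KD2 and 10.1 CPM in KD3.

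The enzymes that cut the receptor gave no call among 9 tested, with a median of -0.06. PSEN2, a catalytic subunit of gamma-secretase, was the 1 gene of that group past 2-fold between KD3 and both other KD libraries, with 4.83 CPM in the vector control and 1.90, 2.30 and 6.66 CPM in KD1, KD2 and KD3. The glycosylation group (4 tested, median 0.02) had no call at 2-fold. LFNG, the Fringe enzyme that alters which ligands a receptor answers to, had 13.6 CPM and then 26.3, 25.4 and 21.9 CPM, with log2 differences of 0.95, 0.90 and 0.69. With the trends removed LFNG was past 2-fold in all 3, at 1.27, 1.22 and 1.03. The ubiquitination and endocytosis group (11 tested, median 0.16) had no call. NEURL1, a ubiquitin ligase, had 3.83, 3.82 and 4.66 CPM in the vector control and KD1 and KD2, and 1.15 CPM in KD3. The other receptors and ligands (3 tested, median 0.38) had no call at 2-fold. DNER, a transmembrane protein of neurons related to the Delta ligands, had 1.5 CPM in the vector control and 5.94, 5.18 and 2.95 CPM in the KD libraries, just short of 2-fold in KD3 (log2 difference 0.95). With the trends removed it was past 2-fold in all 3, at 2.04, 1.85 and 1.00.

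Of the proneural factors, NEUROG1, NEUROG2 and NEUROG3 had no count in the vector control or in KD3.

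**Figure D4:**
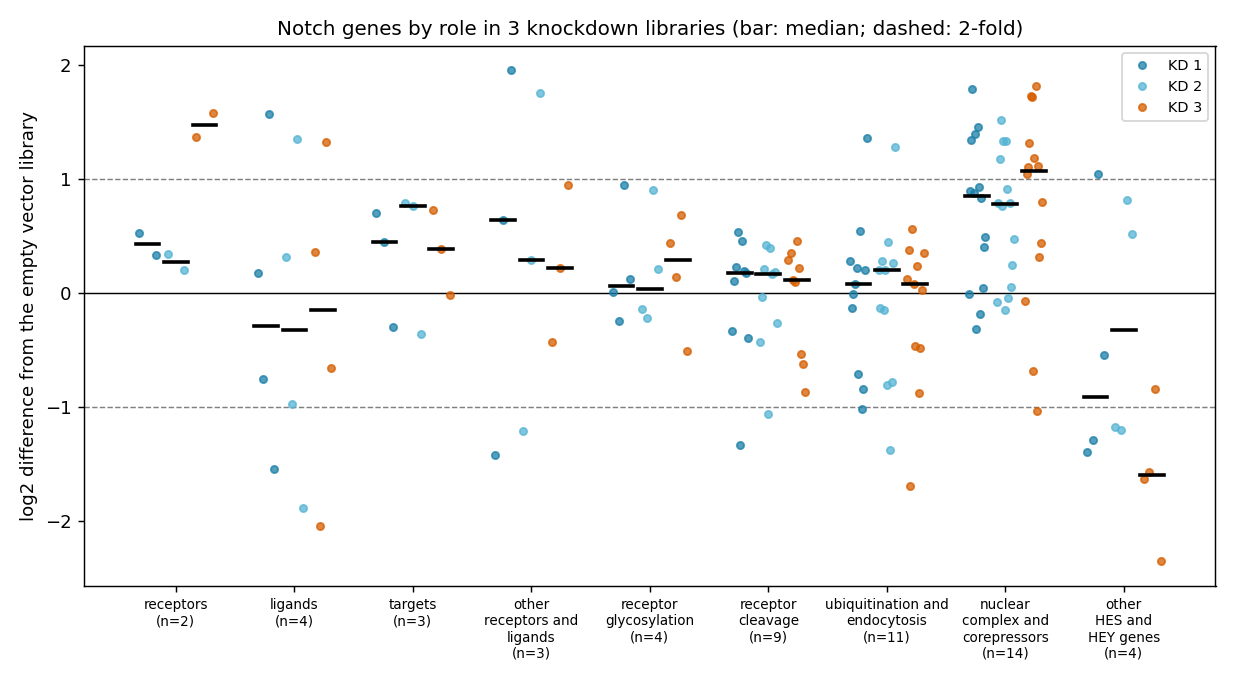
Log2 difference from the vector control (vertical axis) of tested Notch pathway genes, by role (roles with over 1 gene tested) and KD library; black bars are medians, n is the number of genes tested and dashed lines mark 2-fold. The nuclear group has medians of 0.86, 0.78 and 1.08 in KD 1, KD 2 and KD 3, while the receptors reach 1.47 only in KD 3.

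Markers of other cell types were read beside these values. The summed level of 7 neuron markers was 24.6 CPM in the vector control and 71.8, 69.7 and 49.3 CPM in KD1, KD2 and KD3. Of the 7, 6 were past 2-fold higher without KD3 (against 9.06% of all genes) and 1 with it (against 3.65%). With the length and GC trends removed, 0 of the 7 were past 2-fold in all 3, against 2.61% of all genes higher. The summed level of 8 neural progenitor markers was 242 CPM and then 411, 392 and 387 CPM, with PAX6 at 0 in the vector control. It rested mainly on NES, with 167 CPM and then 292, 274 and 270 CPM. In KD3 ZIC1 and SOX1, both with few counts, were below the vector control, by log2 differences of -0.62 and -0.23. PAX6, SOX3, NES, OTX2 and LHX2 were above it there. The trophoblast sum (5 genes) was 34.5 CPM and then 84.3, 79.8 and 150 CPM, with CGA at 0 in all KD libraries. The endoderm sum (5 genes) was 4.33 CPM and then 9.77, 7.94 and 19.9 CPM, with FOXA2 at 0 in all libraries but KD3. The mesoderm sum (5 genes) was 8.29 CPM and then 4.79, 4.24 and 13.8 CPM, with TBXT at 0 in KD1 and KD2. The fibroblast and endothelium sum (6 genes) was 128 CPM and then 238, 211 and 208 CPM. The neuron, neural progenitor, trophoblast, endoderm, and fibroblast and endothelium sums were higher in every KD library, as were JAG1 and HES1, but not every marker followed its sum. In KD3 the neuron sum came mainly from MAP2 (34.5 CPM, against 9.17 CPM in the vector control), while ELAVL3, ELAVL4 and SYT4 were below the vector control there, by log2 differences of -0.77, -2.71 and -1.59, and the median of the 7 was -0.02. FABP7 and PECAM1 were lower in all 3 KD libraries. LHX2 and COL3A1 were lower in KD1 and KD2 and not in KD3, with COL3A1 at 4.04 CPM in the vector control and 0.739, 0.570 and 6.21 CPM in the KD libraries. Trophoblast, endoderm and mesoderm sums were highest in KD3, as were the receptors, but KRT7, CGA, TBX6 and MESP1 were not highest there. KRT7 had 7.17 CPM in the vector control, 11.4 and 12.3 CPM in KD1 and KD2 and 4.45 CPM in KD3. TBX6 had 4.08 CPM in the vector control and 2.88 CPM in KD3. The mesoderm sum in KD3 came mainly from MIXL1, at 8.39 CPM. The part of these markers in the Notch values was not tested, and in bulk RNA fewer cells of a type and less RNA per cell cannot be told apart.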

How the data were processed

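RNA-seq of NT2 cells gave 1 empty vector library and 3 libraries labelled HYDIN2 knockdown. Per the labels' protocols, RNA was depleted of ribosomal RNA and libraries kept strand through dUTP. The authors deposited raw counts per gene, 1 table per library. Per the submitters' processing notes, STAR 2.7.11b, featureCounts 2.0.6, DESeq2 and GRCh38 were used; the annotation release and strand setting are not given in the sources used here. Each table was tied to its sample by the series' record and its group taken from the title. Between 65.2% and 68.0% of nonzero counts were even, which happens where the 2 mates of a fragment count separately, so 95% intervals (exact binomial, Clopper-Pearson, for ratios) used counts divided by 2. The floor of 3 counts was not adjusted in this way. Intervals and the floor cover counting error only.

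Counts were scaled with TMM factors (edgeR 4.0.16 in R 4.3.3, on genes kept by filterByExpr), and log2 CPM used a prior count of 2. Genes entered with a mean of the group means of at least 1 CPM; for replicate 3, the groups were replicate 3 and replicates 1 and 2. The quasi-likelihood test used Benjamini-Hochberg adjustment at 0.05. It takes its spread from the 3 labelled knockdown libraries only. DESeq2 1.42.0 and limma 3.58.1 were alternatives. Coordinates, exon lengths and transcripts came from GENCODE 29 on GRCh38; 58269 identifiers matched. Trends were lowess curves (span 0.3) on the longest transcript. The rule, test and trend removal were run on simulated data. The simulated counts took their spread from the labelled knockdown libraries, and the simulated trend was on length only. They do not show how the rule performs with 1 unreplicated vector control library. All 10 genes were named; of the pathway lists, genes past 2-fold in each labelled knockdown library, genes past 2-fold between replicate 3 and both others, and RBPJ, LFNG and HES6; some genes of these lists are not reported here. NEUROG1, NEUROG2, NEUROG3, DNER and single marker genes were named after their values were seen. Members and lists were chosen with earlier results of these data known.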

Additional observations from a re-analysis of the deposited data

How the results depend on the processing

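JAG1 was past 2-fold in every library labelled knockdown under all scalings, prior counts, expression minimums and omitted libraries run; with length and GC trends removed the 2 genes called were HES1 and JAG2. The number was 4 at 1.5-fold and from 1 to 2 when a labelled knockdown library was left out. Over all genes 1012 were called; this became 672 with trends removed, 2640 at a mean CPM of 0.1, 631 at 5, 3116 at 1.5-fold, and from 1095 to 2364 with a library left out, the highest without KD3. Genes setting KD3 apart numbered 3242, and 8202 at a mean CPM of 0.1, 1639 at 5 and 6715 at 1.5-fold. edgeR's 0 calls became 253 with DESeq2 and from 17 to 11177 with a library left out; the highest was without KD3, where the spread comes from KD1 and KD2 alone and 7 of the 9 Notch genes were called. The mean log2 difference kept its sign under all 11 alternatives for 8 of the 9 genes, NRARP being the exception; without KD3 it moved to 0.39 for NOTCH1, 0.23 for NOTCH3 and -0.37 for NRARP. TMM on all genes or on genes with a mean CPM of at least 1 was added after seeing the data. No paired analysis was possible because only 1 library carries the vector control.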
